A study of Mus musculus with 2 samples.

Results

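Retinoic acid is the active form of vitamin A that directs when germ cells of the gonad differentiate, and 10 mouse genes of its synthesis, breakdown, uptake and binding were examined for ARID4B on chromatin in the newborn testis. The genes were taken as a fixed list out of 21887 protein-coding genes: Rdh10, Aldh1a1, Aldh1a2 and Aldh1a3 for synthesis, Cyp26a1, Cyp26b1 and Cyp26c1 for breakdown, Stra6 for uptake, and Crabp1 and Crabp2 for binding in the cytosol. For each gene, every ARID4B interval that overlapped the gene record (the stretch from the first to the last annotated base) or lay within 50 kb of it was read. ARID4B has an AT-rich interaction domain, which binds DNA, and belongs to the SIN3 complex, which removes acetyl groups from histones. The data came from chromatin of wild type testes, hybrid of C57BL6/J and 129/SvEv, at postnatal day 1.5. A pool of 108 testes gave 1 library precipitated with an anti-ARID4B antibody, and 1 input library without antibody was the control. No value therefore has a replicate, no comparison was tested, and no interval can be given to a cell type, since whole testes were used. Input DNA being the control, dependence of the signal on ARID4B was not tested. The number of reads behind an interval is unknown.

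The pathway has few steps. Retinol enters cells from its carrier in blood through the receptor STRA6, RDH10 oxidises it to retinal, and the ALDH1A enzymes oxidise retinal irreversibly to retinoic acid. CRABP1 and CRABP2 bind retinoic acid in the cytosol, the CYP26 cytochromes hydroxylate it for removal, and RAR-RXR receptor pairs on DNA read it. In the fetal testis CYP26B1 keeps retinoic acid away from germ cells, and after birth retinoic acid made with ALDH1A enzymes of Sertoli cells starts the differentiation of the first spermatogonia, in which it induces Stra8.

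ARID4B intervals lay in the records of 4 of the 10 genes, Rdh10, Aldh1a2, Aldh1a3 and Cyp26b1. Of the synthesis genes 3 had an interval at an end of the record, whereas the breakdown gene Cyp26b1 had a pair of intervals deep inside it and none at an end. Aldh1a1, Cyp26a1, Cyp26c1 and Crabp1 had no interval within 50 kb, and the intervals around Stra6 and Crabp2 all lay nearest to other genes. Each interval carries a score that the authors deposited, whose exact scale is unknown. The score ran from 70.02 to 1760.61 with a median of 125.0 over the 6632 intervals of the list. The counts were near those of all protein-coding genes. An interval in the record or within 50 kb was found for 6 of the 10 genes, against 52.3% of all protein-coding genes. An interval overlapped the record of 4, against 29.6%, and lay within 1 kb of an end of 3, against 27.1%. The last share was 30.0% with a 95% Clopper-Pearson interval of 6.67 to 65.2%, which covers counting error only. The share of all genes lies inside that interval, and what follows is where each gene's intervals were.

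**Figure D1:**
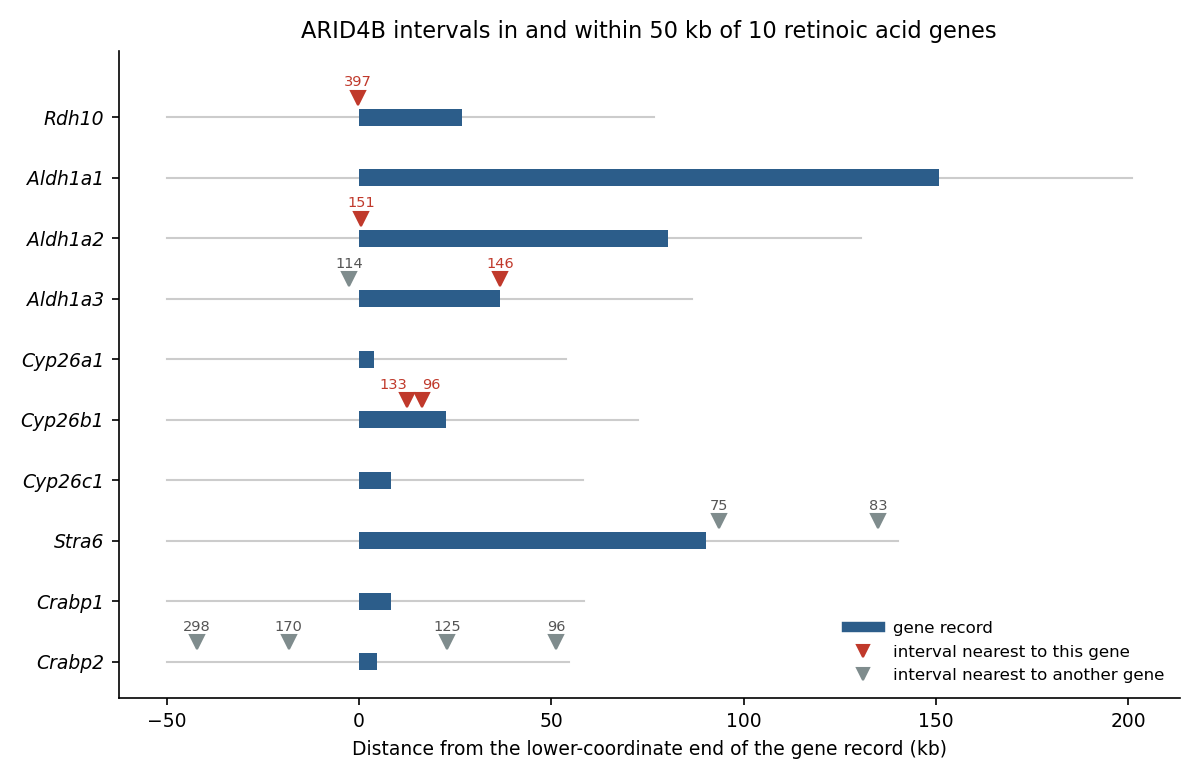
Gene records of the 10 genes (blue bars) drawn from their lower-coordinate end, in kb, with 50 kb on either side (grey lines). Triangles mark ARID4B interval midpoints with their rounded scores, red where the nearest protein-coding gene end is that gene's own and grey where it is another gene's. Red triangles are seen at Rdh10, Aldh1a2, Aldh1a3 and Cyp26b1.

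Promoters of 4 genes are printed here, of which that of Aldh1a2 overlaps an interval and those of Aldh1a1, Cyp26a1 and Cyp26b1 overlap none. They span 250 bases before and 50 bases from the start of transcription, are taken from RefSeq on build GRCm38.p6, and are written along the strand of the gene. The Aldh1a2 promoter (9:71215539-71215838, plus strand) is shown since an interval reaches into it, and capitals mark the 208 bases inside the interval. The Aldh1a1 promoter at its downstream RefSeq start (19:20601718-20602017, plus strand) is shown as the paralog with no interval, with its single CpG in capitals. The Cyp26a1 promoter (19:37697558-37697857, plus strand) is shown for a direct repeat of the hormone receptor half-site, in capitals, in a promoter with no interval. In the Cyp26b1 promoter (6:84593761-84594060, minus strand), whose intervals lie downstream of it, capitals mark the GGGCGG boxes on either strand.
Aldh1a2: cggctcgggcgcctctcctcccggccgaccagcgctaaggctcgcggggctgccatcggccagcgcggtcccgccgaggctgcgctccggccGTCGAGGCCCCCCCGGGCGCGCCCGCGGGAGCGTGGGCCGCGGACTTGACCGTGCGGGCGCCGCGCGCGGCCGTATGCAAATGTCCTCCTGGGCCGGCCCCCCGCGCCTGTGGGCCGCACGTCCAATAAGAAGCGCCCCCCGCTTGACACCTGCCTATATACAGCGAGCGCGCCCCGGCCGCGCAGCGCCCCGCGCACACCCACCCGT
Aldh1a1: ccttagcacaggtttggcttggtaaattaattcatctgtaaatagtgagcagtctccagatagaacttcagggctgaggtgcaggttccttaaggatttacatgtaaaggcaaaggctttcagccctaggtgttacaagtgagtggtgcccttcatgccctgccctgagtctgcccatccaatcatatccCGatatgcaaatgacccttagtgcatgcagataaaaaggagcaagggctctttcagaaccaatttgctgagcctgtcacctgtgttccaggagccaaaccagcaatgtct
Cyp26a1: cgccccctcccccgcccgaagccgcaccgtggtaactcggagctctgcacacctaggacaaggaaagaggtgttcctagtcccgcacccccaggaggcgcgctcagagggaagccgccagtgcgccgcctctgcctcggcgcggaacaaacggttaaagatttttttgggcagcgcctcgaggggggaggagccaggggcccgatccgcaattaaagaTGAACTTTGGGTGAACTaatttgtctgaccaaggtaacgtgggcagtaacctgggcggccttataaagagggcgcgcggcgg
Cyp26b1: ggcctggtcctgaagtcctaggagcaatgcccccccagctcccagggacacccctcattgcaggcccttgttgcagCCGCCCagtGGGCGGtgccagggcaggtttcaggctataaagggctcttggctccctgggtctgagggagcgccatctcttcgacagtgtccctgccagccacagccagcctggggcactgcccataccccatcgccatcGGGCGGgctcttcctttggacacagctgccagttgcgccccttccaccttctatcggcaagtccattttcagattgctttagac

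Rdh10, the enzyme gene of the first oxidation step, had the highest score of the 10 genes. Its interval at 1:16104551-16106709 scored 396.82 and ranked 245 of 6632, above 96.3% of all intervals, and was 2159 bp wide against a median of 1084 bp. It covered the lower end of the Rdh10 record (1:16105882-16132550) and 828 bp of the record. In all, 1.19% of all protein-coding genes had an interval of this score or higher within 1 kb of an end. The cut was Rdh10's own score, so this share is descriptive only. The interval is not Rdh10's alone, however: the record of the ribosomal protein gene Rpl7 lies 1449 bp from the Rdh10 record and 118 bp from the interval. No RefSeq start was available for either gene, so which ends of the records are starts is not known here. The midpoint lay 252 bp from the end of Rdh10, nearer than to the end of Rpl7. To which of these genes the signal belongs was not tested.

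Of the genes for the second oxidation step, Aldh1a2 and Aldh1a3 had intervals of near-equal score and Aldh1a1 had none. The Aldh1a2 interval (9:71215631-71216986) scored 150.52 and ranked 2400. It covered the RefSeq start of Aldh1a2, reaching 158 bp upstream and 1197 bp downstream of it. Such a reach into the gene was usual: at 3333 genes with a single RefSeq start inside an interval, the median reach was 355 bp upstream and 753 bp downstream, and 80.9% reached further downstream. On the other side of the Aldh1a2 start, the lncRNA gene Gm3458, on the minus strand, starts 245 bp from the interval and does not overlap it. The Aldh1a3 interval (7:66427055-66428248) scored 145.89, ranked 2547, and covered the higher end of the record (7:66390892-66427477), with 423 bp inside it. Outside that end, the lncRNA gene Gm33515 lies 399 bp from the interval. A second interval at 7:66387750-66388756, score 114.06, lay 2136 bp from the lower end of Aldh1a3. It covered the RefSeq start of the neighbouring kinase gene Lrrk1, and its midpoint was 88 bp from the end of Lrrk1.

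The nearest interval to Aldh1a1 (19:20492583-20643463), the third retinal dehydrogenase, was 628 kb from the record. Among protein-coding genes on chromosomes with intervals, 13.6% were farther from one, and the median distance was 39.6 kb. The window around Aldh1a1 held 1 other protein-coding gene, its near relative Aldh1a7, which had no interval at an end either. Of the 7 genes with a RefSeq start in the promoter table (Aldh1a1, Aldh1a2, Cyp26a1, Cyp26b1, Cyp26c1, Stra6 and Crabp1), Aldh1a2 was the single gene with an interval within 1 kb of a start, against 28.0% of all protein-coding genes with a start there. Rdh10, Aldh1a3 and Crabp2 were described by the ends of their records.

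**Figure D2:**
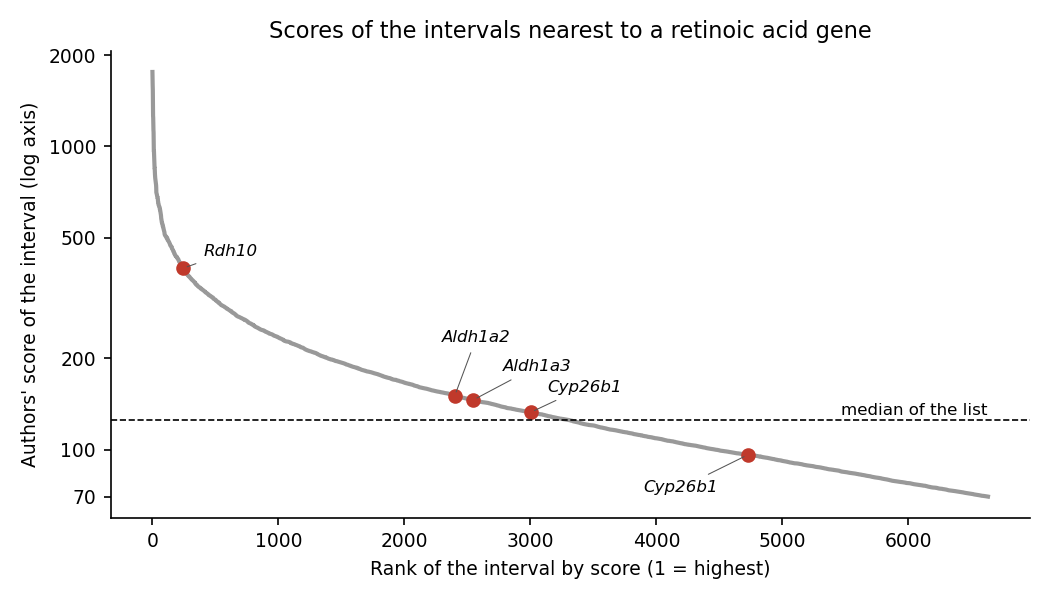
Score of all 6632 intervals (log axis) against their rank, with the 5 intervals that are nearest to Rdh10, Aldh1a2, Aldh1a3 and Cyp26b1 as red points and the median score of 125.0 as a dashed line. Rdh10 lies on the steep part of the curve at rank 245, and the other 4 points lie between ranks 2400 and 4726.

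Among the breakdown genes, Cyp26b1 differed from its relatives in having intervals and from the synthesis genes in where they were. The interval at 6:84583138-84584640 scored 132.78 (rank 3002) and that at 6:84587259-84588384 scored 96.16 (rank 4726), so 1 was above and 1 below the median score. They lay 9.17 to 10.7 kb and 5.43 to 6.55 kb downstream of the RefSeq start, inside the record (6:84571414-84593908), with 2619 bp between them. Neither is near another gene, the nearest protein-coding gene end to both midpoints being that of Cyp26b1 itself. Whether they lie in exons or introns was not examined. This arrangement was uncommon in the list, by classes set after the Cyp26b1 intervals were seen, so the shares are descriptive only. Of all protein-coding genes, 2.60% had 2 or more intervals overlapping the record. An interval with its midpoint over 5 kb inside both ends was found in 2.41% of genes, and 1.71% had such an interval with none within 1 kb of an end. Among genes over 10 kb long, 0.301% (42 of 13961) had 2 or more such intervals and none within 1 kb of an end. Cyp26b1 was among them, and so was Nr2f2, a retinoic acid response gene listed below.

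Cyp26a1 and Cyp26c1 lie side by side, with 4418 bp between their records, and neither had an interval. The nearest interval, at 19:37550379-37551254 with a score of 125.35, was 146 kb from Cyp26a1 (19:37697738-37701536) and 134 kb from Cyp26c1 (19:37685112-37693320). It covered the RefSeq start of Exoc6, an exocyst subunit gene whose other end is 1060 bp from Cyp26c1. The paralog Exoc6b (6:84618486-85070258, minus strand) neighbours Cyp26b1 and likewise had an interval over its RefSeq start, with a score of 117.07. That start is at the end of Exoc6b away from Cyp26b1, outside the 50 kb window. Both exocyst genes thus had an interval at a start, as did 28.0% of all protein-coding genes with a known RefSeq start, within 1 kb. The pairs of neighbours differed inside the Cyp26 genes.

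The uptake and binding genes had no interval that was nearest to them. Stra6 (9:58063793-58154004), whose record overlaps that of Ccdc33, had 2 intervals in its window, both of low score. The interval at 9:58156775-58158257 scored 75.4 (rank 6170), lay 2771 bp from the record and was inside Islr, 297 bp from the RefSeq start of that gene. The interval at 9:58197523-58200170 scored 82.54 and lay inside Islr2, 43.5 kb from Stra6. All 4 RefSeq starts of Stra6 were over 22 kb from an interval, the nearest by 22.1 kb.

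Crabp2 (3:87948693-87953372) had the most intervals in its window, 4, and none of them nearer than 17.7 kb. Its window is also the most crowded of the 10, with 7 protein-coding genes including Crabp2, where the median of all genes is 4. The interval at 3:87905885-87907231 scored 298.09 and covered both RefSeq starts of Hdgf, a growth factor gene. That at 3:87929740-87931032 scored 170.03 and covered the starts of Isg20l2 and Rrnad1. That at 3:87971037-87972298 scored 124.61 and covered the start of Nes, the gene of the intermediate filament protein nestin. The last, at 3:87999276-88000464, scored 95.92 and covered the start of Bcan, a proteoglycan gene. Of all protein-coding genes 26.2% had 2 or more intervals in such a window, and of the 10 genes Aldh1a3, Cyp26b1, Stra6 and Crabp2 did. Crabp1 (9:54764748-54773110) had none, and its nearest interval, 64.5 kb away with a score of 106.69, covered the RefSeq starts of the chaperone gene Dnaja4. An interval in the window whose nearest protein-coding end was the gene's own was therefore present for 4 of the 10 genes, again against 27.1% of all.

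Promoters that overlapped an interval were richer in CpG, with a median of 26 per 300 bases, than those that did not, with a median of 7. Over 21263 promoters of protein-coding genes, 0.381% of those with 0 to 4 CpGs overlapped an interval, 18.7% of those with 10 to 14 and 54.3% of those with 25 to 67. Both Aldh1a1 promoters, with 3 CpGs at the upstream start and 1 at the downstream start, were in the lowest class. The Aldh1a2 promoter had 50 CpGs, more than 98.9% of promoters. Cyp26a1 was in the same top class with 26 CpGs, yet had no interval within 146 kb. Crabp1 had 17 CpGs, in a class in which 31.4% of promoters overlapped an interval. Cyp26b1 with 9, Cyp26c1 with 5 and Stra6 with 5 at 3 starts and 10 at another were in classes with 4.18 to 18.7%. The part of base composition in these counts was not tested.

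**Figure D3:**
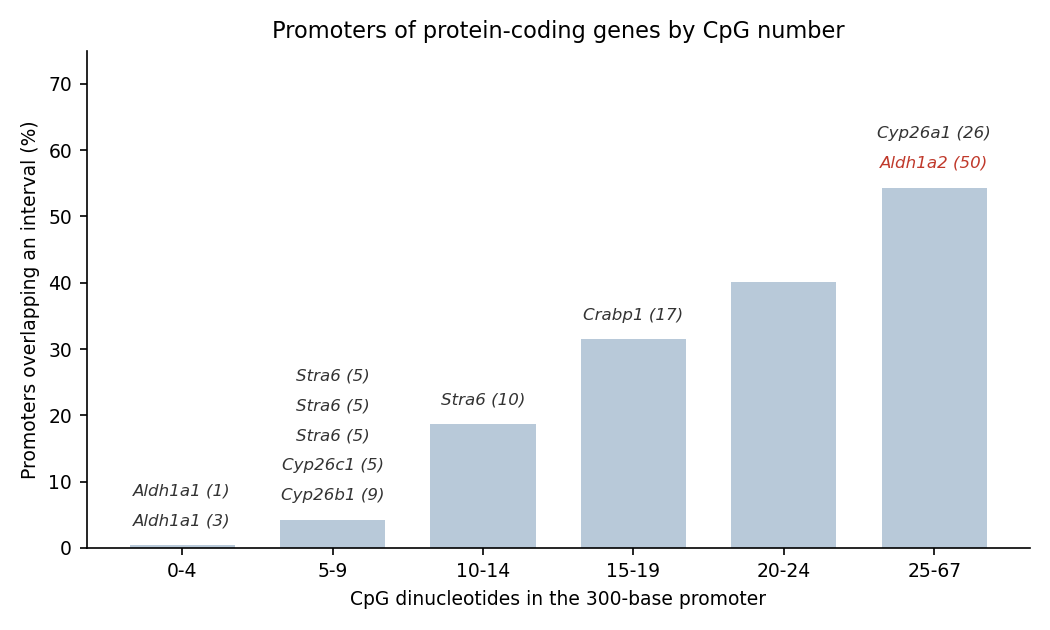
Share of 21263 promoters (300 bases each) of protein-coding genes that overlap an ARID4B interval, by number of CpG dinucleotides. Names give the promoters of the retinoic acid genes in their class with their CpG number, red where an interval overlaps (Aldh1a2) and dark where none does; Aldh1a1 and Stra6 have more than 1 promoter.

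Receptor half-sites were sought in the same promoters on both strands. Retinoic acid receptors bind direct repeats of a half-site, and a repeat of AGTTCA with 5 bases between the copies was found in 4 of 21263 promoters (0.019%), that of Cyp26a1 among them. In the Cyp26a1 sequence above it reads on the opposite strand, from 32 to 16 bases before the start. Cyp26a1 is a classic gene induced by retinoic acid. The same repeat of AGGTCA was in 1 promoter, of none of the 10 genes, while single copies of AGGTCA and AGTTCA, which the repeats contain, were in 14.7 and 12.5% of all promoters. Repeats that mix both strings, repeats of other half-sites and other spacings were not sought. TATAAA was in 12.6% of all promoters. It lay 29 to 34 bases after the start in Cyp26a1 and 139 to 134 bases before it in Cyp26b1. GGGCGG, a letter string that SP factors bind, was in 46.2% of all promoters. It had 5 copies in Crabp1, 3 in Cyp26b1, 2 in Cyp26a1, 0 to 3 in the Stra6 promoters and none in Aldh1a2, Aldh1a1 or Cyp26c1. These are matches of letters in one short window, and binding there was not examined.

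Other genes of the pathway were read from 6 lists with 54 genes in all. An interval was within 1 kb of an end of 12 of them (22.2%), against the 27.1% of all protein-coding genes, and overlapped the record of 15 (27.8%). Differences between the lists, which hold 6 to 18 genes, were not tested. Genes of retinol transport and storage (Rbp2, Rbp3, Rbp4, Ttr, Lrat, Stra6l and Rlbp1) had an interval at an end in 0 of 7, which allows a share of up to 42.9% when a count of 0 is read as up to 3 genes (the Clopper-Pearson limit is 41.0%), and none within 50 kb. Of 18 retinol and retinal oxidoreductases 3 had one: Rdh14 with 130.08, in an interval shared with Nt5c1b, Dhrs4 with 91.43, shared with Carmil3 and outside the Dhrs4 record, and Dhrs3, a retinal reductase gene, with 74.81. Of 7 other aldehyde dehydrogenases Aldh2 had one, with 135.24. No oxidoreductase or dehydrogenase of these lists reached the 396.82 at Rdh10.

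Higher shares were counted in the lists of coregulators and of receptors, which are small, and these shares were not tested. The Clopper-Pearson intervals given cover counting error only. The list of coregulators and ligand delivery had the highest, 5 of 7 (95% Clopper-Pearson interval 29.0 to 96.3%), with 346.91 at the coactivator gene Ncoa2, 222.78 at the corepressor gene Ncor1, in an interval shared with Pigl, 190.97 at Nrip1 and 168.88 at the coactivator gene Ncoa1. The fifth, the coactivator gene Ncoa3, had 149.9 in an interval shared with the predicted gene LOC115489489. Prame and Fabp5 were the 2 without one, the nearest intervals being 16176 kb from Prame, on the X chromosome, and 179 kb from Fabp5. Of the 6 receptor genes 3 had an interval at an end (95% Clopper-Pearson interval 11.8 to 88.2%). They were Rxrb with 348.04, shared with H2-Ke6 and Slc39a7, Rxra with 149.11 and Rara with 118.22. Either end of a record counts here, and the midpoint of that Rara interval lay 8719 bp from the nearest RefSeq start of Rara. Rarg had a single interval, of score 74.14, inside its record, which covered a RefSeq start, its midpoint lying 84 bp from it. Rarb and Rxrg had none, the nearest being 64.7 and 289 kb away. Of 9 response genes none had an interval at an end, which by the same reading allows a share of up to 33.3% (Clopper-Pearson limit 33.6%), and 3 (33.3%, against 29.6% of all protein-coding genes) had intervals overlapping the record: Nr2f2 with 3 (116.94 to 178.49), Meis1 with 2 and Meis2 with 1. Stra8, the germ cell gene induced by retinoic acid, had none, the nearest being 139 kb away.

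**Figure D4:**
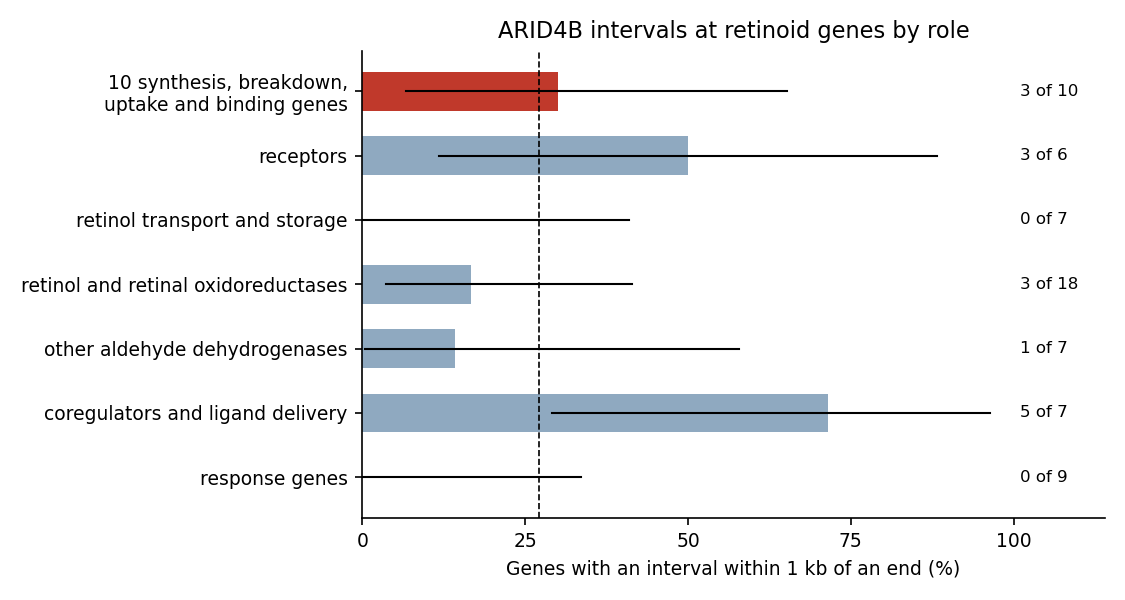
Share of genes with an ARID4B interval within 1 kb of an end of the record, for the 10 genes (red) and 6 lists of other retinoid genes (blue), with counts at the right. Black lines are 95% Clopper-Pearson intervals, which cover counting error only, and the dashed line is the 27.1% of all protein-coding genes. Differences between the lists, or from that line, were not tested.

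Rara, the gene of retinoic acid receptor alpha, held 7 intervals in its record (11:98927800-98974942), and no other protein-coding record held more than 6. It was the single gene of 21887 with 7 (0.00457%), a number taken from Rara itself, so the share is descriptive only. The highest scores were 289.74 at 11:98959425-98961617 and 263.71 at 11:98937462-98939006, and the lowest was 90.31. The interval at 11:98937462-98939006 lay within 1 kb of 3 of the 4 RefSeq starts of Rara, and that at 11:98962700-98964235 (146.37) within 1 kb of the fourth. The other 5 were over 1 kb from any of these starts. A predicted protein-coding gene, Gm46294, lies wholly inside the Rara record, and the interval at the 3 starts overlaps it. At Rara the intervals ran from the most upstream RefSeq start to near the far end of the record, whereas both intervals of Cyp26b1 lay between 5.43 and 10.7 kb from its start and left the start free.

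**Figure D5:**
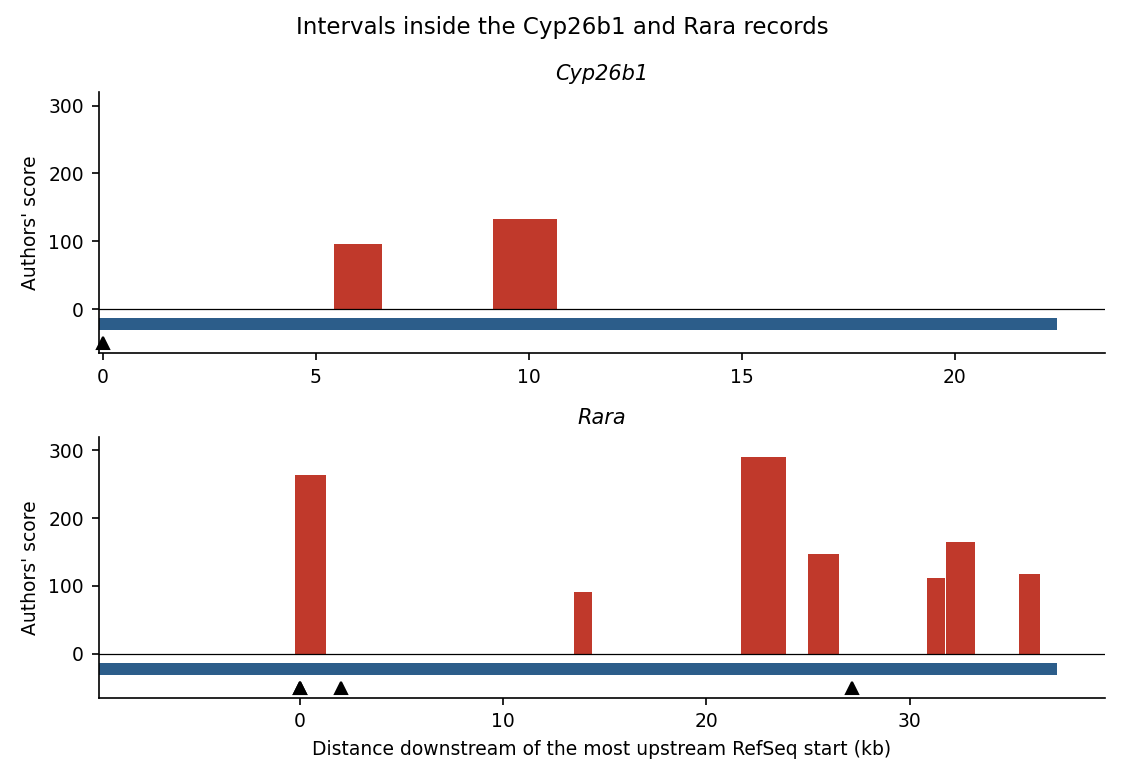
Intervals inside the records of Cyp26b1 (top) and Rara (bottom) as red bars, with the authors' score as height and the interval's extent as width, against the distance in kb downstream of the most upstream RefSeq start. Blue bars are the gene records and black triangles the RefSeq starts, 1 at Cyp26b1 and 4 at Rara, of which a pair lies 0.022 kb apart; the Cyp26b1 bars lie from 5.43 to 10.7 kb.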

How the data were processed

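ARID4B ChIP-seq was measured on 1 pool of testes with 1 input control. The submitters' processing notes name BWA, MACS and build mm9, while the list was deposited under an mm10 name; for versions and filters, nothing is given in the sources used here. Positions were read as GRCm38 (mm10), where 74.7% of the 6448 intervals on chromosomes with promoters in the table lay within 1 kb of a RefSeq start, against 5.58% when shifted by 5 kb, and are printed counting from 1. The value of each interval is a score the authors deposited, with all values above 70, used only within this list; its exact scale and the depth of either library are unknown.

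Intervals were joined to RefSeq gene records (GRCm38.p6) by overlap of at least 1 bp, with a 50 kb window, and with 1 kb windows at record ends and at starts. Starts and sequences came from RefSeq promoters, which matched 7 of the 10 genes. Protein identities were not computed. Counts stand beside all protein-coding genes, with no test. The shares set by the score of Rdh10, the layout of Cyp26b1 and the interval number of Rara were not planned and followed those values. Python 3.11.15, numpy 2.4.6 and pandas 2.3.3 were used, and overlaps were tested on simulated data. The 10 genes and the lists were chosen with earlier results of these data known, and 3 listed genes are not reported here. Named were the 10 genes, the gene nearest each interval, up to 4 best genes per list, all receptors and Stra8. Rpl7, Gm3458, Aldh1a7, Exoc6, Exoc6b, Dnaja4, Gm33515, Rrnad1, Ccdc33, Gm46294, genes sharing an interval, and list members beyond that rule were named after their values were seen.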

Additional observations from a re-analysis of the deposited data

How the results depend on the processing

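Alternatives were run for 5 counts. For the 10 genes these were an interval in the window, at an end or nearest to them. The others were an interval at a start, for the 7 genes with a RefSeq start, and other retinoid genes at an end. These counts kept within 1.5 times their values in the 18 alternatives; the counts for Cyp26b1, Rara, CpG classes, motifs and single lists had none. With intervals above the median score, 5 of the 10 genes had one in the record or within 50 kb (34.01% of all protein-coding genes) and 3 at an end, where the share of all protein-coding genes fell from 27.09 to 14.79%, since the intervals at Rdh10, Aldh1a2 and Aldh1a3 all score above it. The record alone gave 4, 5 kb or 10 kb either side 5, and 100 kb either side 7. At a gene end, windows of 500 bp and 5 kb gave 3 and 4. The start of transcription gave 1 of the 7 genes with a RefSeq start throughout. Of the other retinoid genes between 9 (midpoint in the window, or scores above the median) and 17 (5 kb windows) had an interval at an end, against 12 in the report, and 15 anywhere in the record, the last chosen after seeing the data. No paired analysis was possible because there was 1 library of each kind. With 1 ChIP library of unknown depth, a gene without an interval cannot be told from one whose enrichment was too low to be listed.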
